A study of Homo sapiens with 8 samples.

Results

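The mitochondrial ribosomal proteins were taken as the protein-coding genes whose GENCODE symbol is MRPL or MRPS followed by a number, with or without a final A, B or C. The rule found 78 of the 58219 listed genes, 49 with large-subunit (MRPL) and 29 with small-subunit (MRPS) symbols, and no measured value entered it. RNA-seq libraries were made from 2 multiple myeloma cell lines, H929 and KMS11, which both carry the t(4;14) translocation. Each line received 2 µM fluvastatin, a statin, or ethanol, its solvent, for 24 h, with 2 replicates in each of the 4 groups. Each line stands for 1 established culture, both treatments were given in the same medium with fetal bovine serum, and no genetic change was made in either line.

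The mitochondrial ribosome translates the few mRNAs of the mitochondrial genome, which encode core subunits of the respiratory chain and ATP synthase. Its rRNAs come from mitochondrial DNA, but all of its proteins are encoded in the nucleus, made on cytosolic ribosomes and imported. The large subunit forms peptide bonds and holds the exit tunnel, whereas the small subunit binds the mRNA and reads its codons. Both subunits hold proteins with bacterial homologues and proteins acquired in the mitochondrial lineage, and 46 and 31 of the 78 genes fall in these classes. The remaining gene, MRPS36, keeps its symbol but encodes a component of the α-ketoglutarate dehydrogenase complex. In the known structure MRPS30 and MRPS18A belong to the large subunit, so that the split by structure is 51 large and 26 small.

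The libraries held 26702515 to 41910446 estimated counts, of which 85.2 to 91.4% were on protein-coding genes. All 78 members passed the filter on low counts, among 13129 protein-coding genes tested. Of 8 plasma cell markers, 7 were above 16 TPM in every library of both lines, and CD38 was at 0.01 to 0.04 TPM in KMS11. FGFR3, a t(4;14) target gene, was at 5.33 to 10.8 TPM in H929 and 75.3 to 95.2 TPM in KMS11. NSD2, the other target gene looked at, was at 112 to 141 TPM in H929 and 83.6 to 118 TPM in KMS11. The epithelial marker EPCAM was at 30.2 to 35.9 TPM in KMS11 and at most 0.04 TPM in H929. Markers of T cells, B cells, monocytes and fibroblasts were at 0.37 TPM or less, except CD3E at up to 3.54 TPM in H929. The first fluvastatin library of KMS11 stood apart in base composition. In it, the median log2 CPM of all tested genes over 55% GC lay 0.41 above the ethanol mean of that line, against 0.06 in the second fluvastatin library. The responses in KMS11, and results that compare the responses of the lines, rest on this pair. The counts of called members for these are also given with an offset for GC content. Counts from bulk RNA are relative, and fewer cells and less RNA per cell cannot be told apart.

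Levels per length were compared in TPM. In H929 cells with ethanol the mean TPM of the members ran from 5.38 (MRPL57) to 70.2 (MRPL9), with a median of 25.6. In KMS11 cells with ethanol it ran from 0.785 (MRPL41) to 245 (MRPL51), with a median of 36.7. The spread of levels was thus 13.1-fold in H929 and 312-fold in KMS11. Over the 78 genes, Spearman's rho of the mean TPM was 0.92 between ethanol and fluvastatin in H929, 0.98 in KMS11, and 0.69 between the lines in ethanol. This is a correlation across genes of shared libraries, with no test.

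The summed TPM of the 78 genes was 2210.0 and 2340.0 in the ethanol libraries of H929 and 1580.0 and 1670.0 in its fluvastatin libraries. In KMS11 it was 3950.0 and 3750.0 with ethanol and 2960.0 and 3390.0 with fluvastatin. The fluvastatin libraries were below the ethanol libraries in both lines, and the groups did not overlap. The summed CPM was 4380.0 and 4720.0 with ethanol and 3260.0 and 3420.0 with fluvastatin in H929. In KMS11 it was 5150.0 and 5200.0 against 4580.0 and 4740.0. The summed TPM of cytosolic ribosomal protein genes was also lower with fluvastatin. It was 102000.0 and 99700.0 against 93900.0 and 91800.0 in H929, and 106000.0 and 105000.0 against 86400.0 and 92900.0 in KMS11. For the large mitochondrial subunit the summed TPM was 1410.0 and 1490.0 in H929 with ethanol and 991 and 1050.0 with fluvastatin. For the small subunit it was 803 and 852 with ethanol and 586 and 621 with fluvastatin. The 2 subunits fell side by side: the ratio of large to small summed TPM was 1.75 in both ethanol libraries of H929, and 1.69 and 1.70 with fluvastatin. In KMS11 the ratio was 1.91 in both ethanol libraries, and 1.92 and 1.97 with fluvastatin. The ratio of summed CPM was 1.45 and 1.42 with ethanol and 1.39 and 1.37 with fluvastatin in H929. In KMS11 it was 1.59 in both ethanol and 1.61 in both fluvastatin libraries. An exact permutation test of either ratio gave two-sided p = 0.333 in each line. This is the smallest value that 2 against 2 libraries allow, so the test cannot show a change. With the subunits split by structure the ratio of summed TPM was 1.98 and 1.99 with ethanol and 1.96 and 1.98 with fluvastatin in H929, where the groups overlapped.

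**Figure D1:**
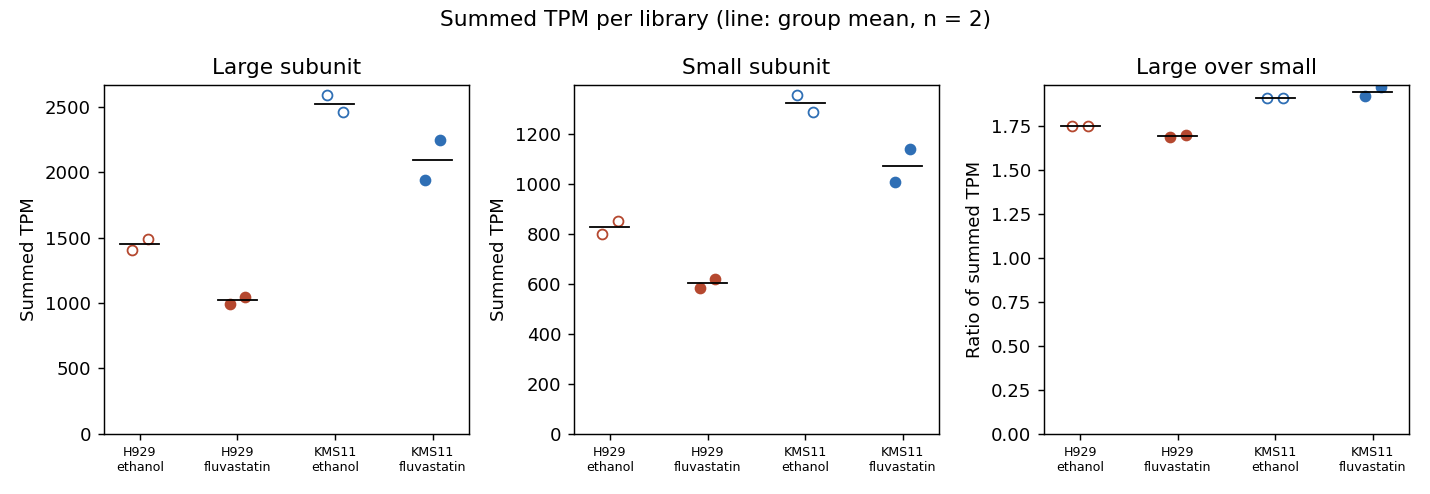
Summed TPM of the large-subunit genes, of the small-subunit genes, and their ratio (vertical axes from 0), in each library of the 4 groups; open points are ethanol, filled points fluvastatin, and the black line is the mean of 2 libraries. Both sums were lower with fluvastatin in both lines, while the ratio by symbol stayed between 1.69 and 1.75 in H929 and between 1.91 and 1.97 in KMS11.

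In H929 cells, 49 of the 78 members fell with fluvastatin and none rose (edgeR quasi-likelihood test, Benjamini-Hochberg adjusted p under 0.05 over 13129 genes). Of all tested genes, 19.3% were called lower in this comparison. The median log2 fold change of the members was -0.45, beside 0.02 for all tested genes, and 76 of 78 values were negative. The replicate CPM of the 2 groups did not overlap, and were lower with fluvastatin, for 65 members, as they were for 33.5% of all tested genes. By subunit, 33 of 49 large-subunit genes fell, with a median of -0.49, and 16 of 29 small-subunit genes, with a median of -0.36. Split by structure the medians were -0.48 and -0.40. Members with bacterial homologues fell in 32 of 46 cases (median -0.48), and mitochondria-specific ones in 17 of 31 (median -0.42).

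The largest fall was that of MRPS34, a mitochondria-specific protein that small-subunit stability depends on. Its CPM was 82 and 77 with ethanol and 33.2 and 29.2 with fluvastatin in H929, a log2 fold change of -1.35 ± 0.18 (SE, n = 2 against 2, adjusted p = 0.00029), or 2.55-fold. MRPL18, the counterpart of bacterial uL18, was at 34.4 and 39.3 CPM with ethanol and at 17.3 and 17 with fluvastatin (log2 fold change -1.11 ± 0.13, adjusted p = 0.00013). Every fluvastatin library of H929 was below every ethanol library for both genes. MRPS12, the counterpart of uS12 at the decoding centre, went from 51.1 and 48.9 CPM to 26.3 and 22.2 (log2 fold change -1.04 ± 0.15, adjusted p = 0.0004). MRPL17 (-1.01), MRPL14 (-0.99) and MRPL12 (-0.96), the last a protein of the stalk that recruits translation factors, followed in size on the log2 scale. In KMS11 the same genes did not pass the test: MRPS34 was at 55.2 and 44.2 CPM with ethanol and 63.6 and 43.7 with fluvastatin, with overlapping groups. At the other end, MRPL10 (0.03 ± 0.11) and MRPL44 (0.01) had log2 fold changes near 0 in H929. MRPL12 shares 69.5% of its exon bases with a read-through gene on the same strand, and MRPS34 shares 31.2% with EME2 on the opposite strand. Whether the counting used strand is not given in the sources used here.

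**Figure D2:**
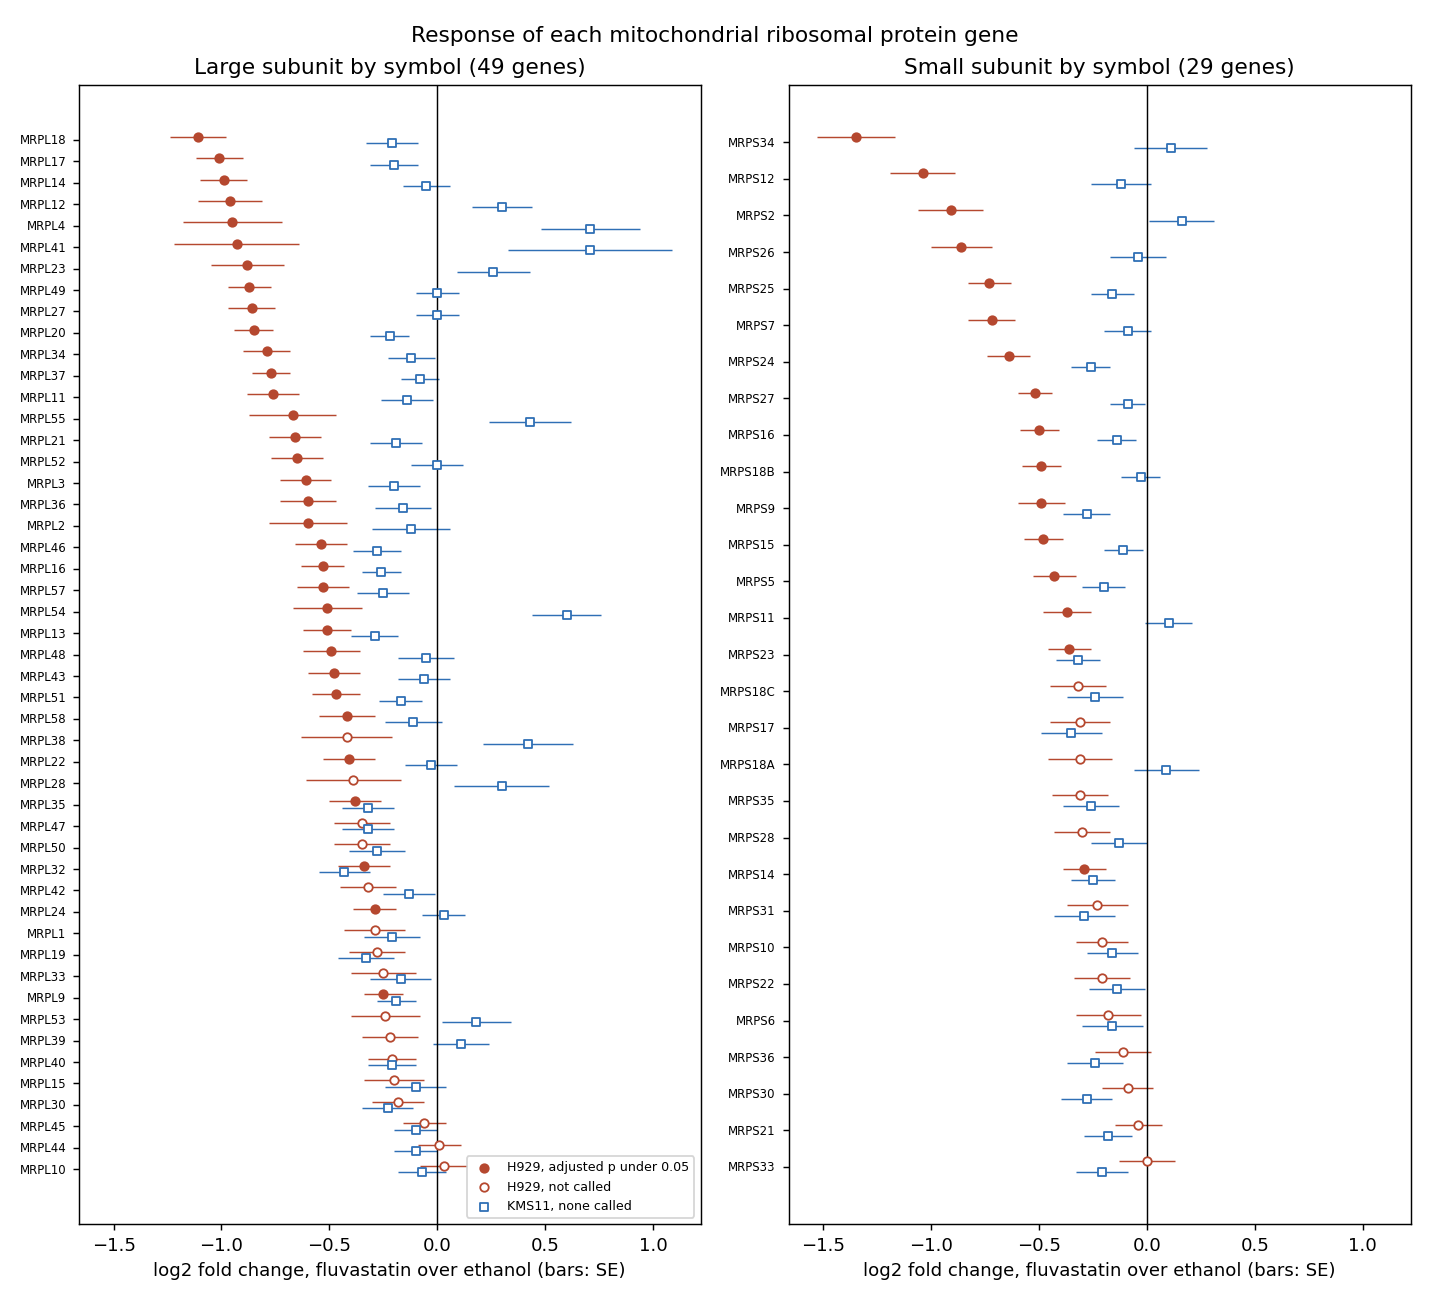
Log2 fold change, fluvastatin over ethanol, of each large-subunit (left) and small-subunit (right) gene, with the standard error as a bar; red circles are H929 (filled where the adjusted p was under 0.05) and blue squares KMS11. In H929 the values run from -1.35 to 0.03 and 49 are filled, whereas none of the KMS11 values was called.

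In KMS11 cells no member passed the edgeR test in either direction, where 0.533% of all tested genes were called lower. By DESeq2 1 member was lower and 2 were higher, with no share of all tested genes set beside these counts. The edgeR p before adjustment was under 0.05 for 16 of the 78 members, near the share over all tested genes (2874 of 13129). The median log2 fold change was -0.14 (-0.12 for the large and -0.16 for the small subunit), and 62 of 78 values were negative. The replicate groups were apart and lower with fluvastatin for 46 members, beside 26.5% of all tested genes, and 37 members had this pattern in both lines, beside 12.4% of all tested genes. The standard deviation of the log2 ratio between replicates, over the members, was 0.299 for the fluvastatin libraries of KMS11 and 0.109 for its ethanol libraries. It was 0.161 and 0.2 for the ethanol and the fluvastatin libraries of H929.

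Across both lines, with the line as a term, 10 members fell and none rose, where 3.93% of all tested genes were called lower. They were MRPL13, MRPL16, MRPL17, MRPL20, MRPL32, MRPL46, MRPL57, MRPS9, MRPS23 and MRPS24, and all 10 were also called in H929 alone. The median over the members was -0.30, with 77 of 78 values negative, and it was -0.31 for the large and -0.29 for the small subunit. MRPL17, whose bacterial counterpart bL17 lies near the exit tunnel, was at 67.9 and 65.5 CPM with ethanol and 35 and 31.3 with fluvastatin in H929, and at 33.7 and 35.5 against 31.8 and 28.3 in KMS11. Its joint log2 fold change was -0.61 ± 0.16 (adjusted p = 0.049). MRPL20, whose bacterial counterpart binds rRNA early in assembly, had a joint value of -0.54 ± 0.13 (adjusted p = 0.038), and MRPS24, the counterpart of uS3, one of -0.44 ± 0.10 (adjusted p = 0.031). All 3 genes were lower in every fluvastatin library than in every ethanol library of the same line. This count hung on single libraries: it was 0 without any 1 of the 4 H929 libraries, 6 without the first and 1 without the second ethanol library of KMS11, and 18 without the first fluvastatin library of KMS11. It also hung on the model, with 0 when the line was left out as a term and 46 for the mean of the within-line contrasts. The shares of all tested genes under these models were not set beside the counts.

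**Figure D3:**
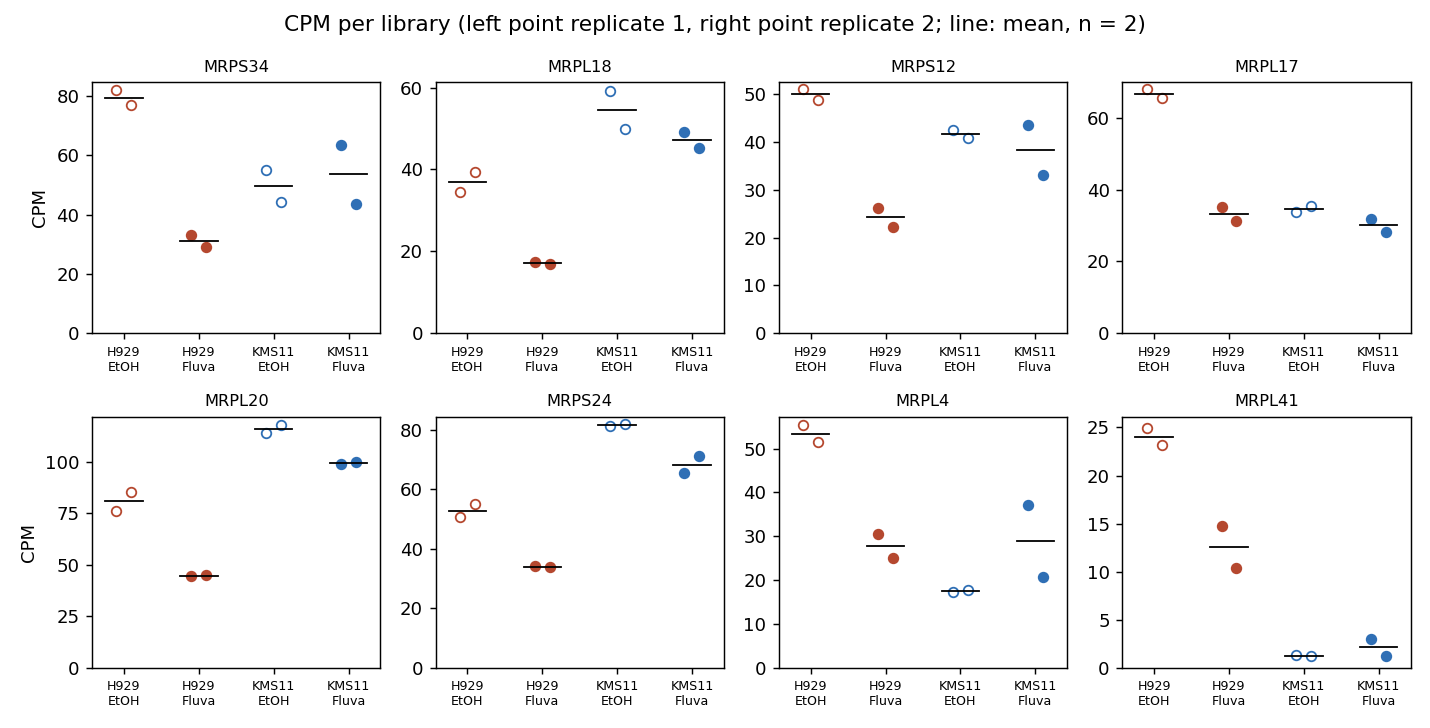
CPM (vertical axes from 0) of 8 members in each library, replicate 1 left and replicate 2 right, with the mean of 2 libraries as a line; EtOH is ethanol and Fluva fluvastatin. MRPS34, MRPL18, MRPS12 and MRPL17 sit far lower with fluvastatin in H929, and MRPL4 is at 37.2 CPM in the first and 20.6 CPM in the second fluvastatin library of KMS11.

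The response itself differed between the lines for 24 members, all with a higher (less negative or positive) value in KMS11, where 11.7% of all tested genes were called in that direction. All 24 were among the 49 that fell in H929, and 16 were large-subunit and 8 small-subunit genes. The median difference, KMS11 minus H929, was 0.40 for the large and 0.21 for the small subunit on the log2 scale. MRPL4, whose bacterial counterpart lines the exit tunnel, differed most, by 1.66 ± 0.32 (adjusted p = 0.0066). Its CPM went from 55.3 and 51.5 to 30.5 and 25 in H929, and from 17.3 and 17.8 to 37.2 and 20.6 in KMS11. The mean values moved in opposite directions, but the change in KMS11 was not called. Without the first fluvastatin library of KMS11 the difference was 1.20. MRPL41, a mitochondria-specific large-subunit protein, differed by 1.64 ± 0.47 (adjusted p = 0.033), but its KMS11 libraries held only 1.25 to 3.03 CPM and the call was lost when any 1 of 6 of the 8 libraries was left out, with a value of 0.93 without that same library. MRPS34 differed by 1.46 ± 0.25 (adjusted p = 0.0034). The count over the members was 15 without the second fluvastatin library of H929 and 13 without the first ethanol library of KMS11.

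These responses followed the GC content of the genes, in opposite directions in the 2 lines. Across the 78 members, Pearson's r between GC content and log2 fold change was -0.60 in H929, 0.72 in KMS11 and 0.79 for the difference between them. Across 13119 tested genes with a GC value it was -0.11, 0.32 and 0.29. The points of each correlation share their libraries, and no p is given. The 21 members over 55% GC had a median of -0.79 in H929 and 0.11 in KMS11, and the 25 under 45% GC had -0.29 and -0.24. All tested genes over 55% GC had medians of -0.12 and 0.30. Of the 24 members whose response differed between the lines, 13 were over 55% GC and none was under 45%. The same skew stood outside the members: 20.6% of all tested genes over 55% GC were called higher in this comparison, and 4.9% of those under 45%.

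By library, members over 55% GC lay 0.68 and 0.86 below the ethanol mean in the fluvastatin libraries of H929 on the log2 scale (medians of -0.68 and -0.86). Members under 45% GC had medians of -0.38 and -0.17. In KMS11 the first fluvastatin library had a median of 0.30 for members over 55% GC and -0.32 for members under 45%, and the second had -0.09 and -0.14. In H929 the medians were thus below 0 in both libraries, but under 45% GC they came near the spread of the ethanol libraries (-0.11 and 0.11), and 7 of 25 members were called there, beside 14.6% of all tested genes of that class. In KMS11 the sign for GC-rich members differed between the replicates.

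**Figure D4:**
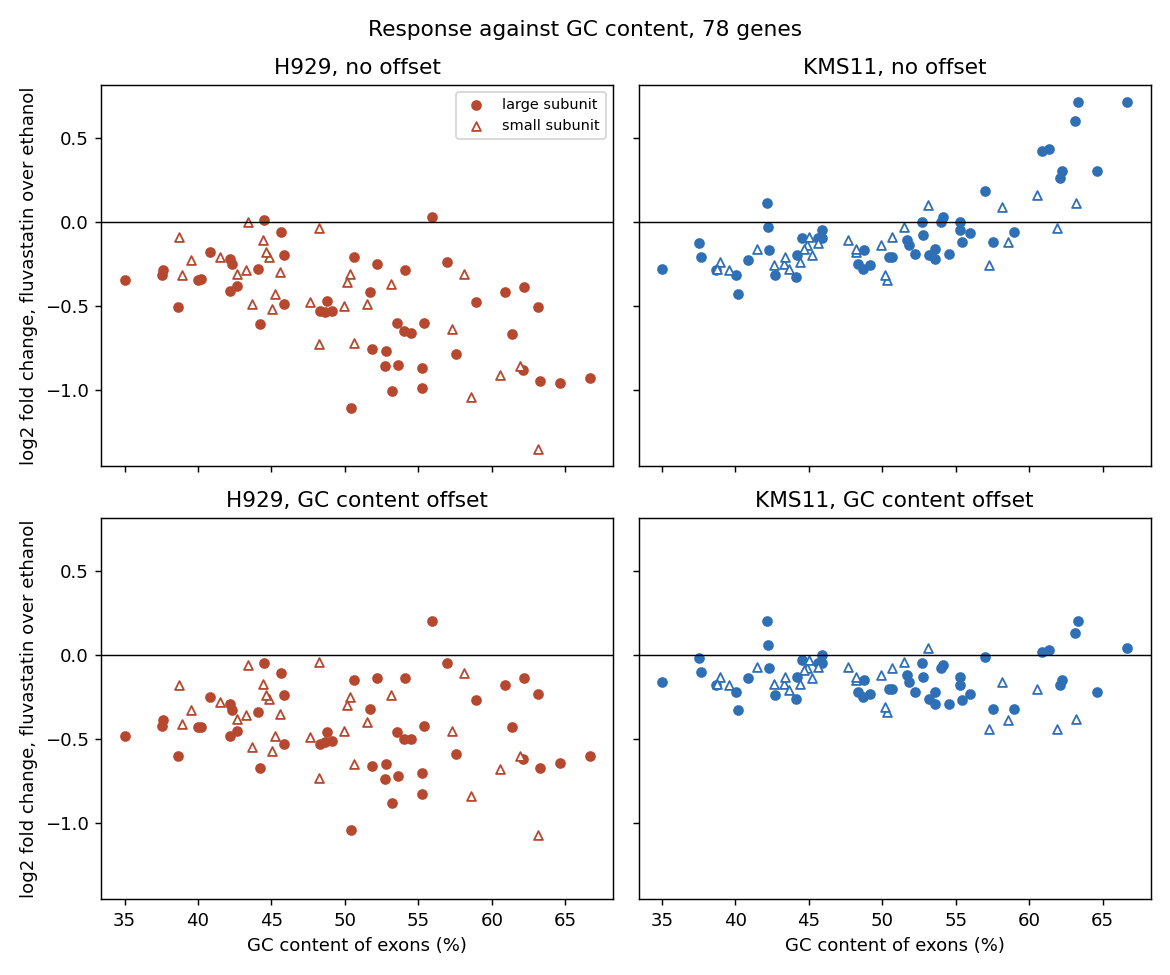
Log2 fold change, fluvastatin over ethanol, against the GC content of exons in percent for the 78 genes in H929 (left) and KMS11 (right), without (top) and with (bottom) an offset for the GC trend of each library; filled circles are large-subunit and open triangles small-subunit genes. The slopes of opposite sign (r of -0.60 and 0.72) shrink with the offset (-0.21 and -0.09), while most points stay below 0.

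With the GC trend of each library, fitted over all tested genes, as an offset, 60 members fell and 1 rose in H929 (23.8% of all tested genes were called lower). Of the 49 calls without the offset, 46 remained. In KMS11, 9 members then fell (MRPL10, MRPL16, MRPL17, MRPL20, MRPL32, MRPS12, MRPS23, MRPS24 and MRPS34), beside 4.56% of all tested genes, and 8 of these 9 were also called lower in H929 with the offset. The exception was MRPL10, a stalk-base protein, which was the 1 member that rose in H929 (0.20, adjusted p = 0.022). MRPS34 in KMS11 went from a log2 fold change of 0.11 to -0.38 (adjusted p = 0.046). Across both lines 37 members fell, beside 10.1%. The difference between the lines was called for 31 members with a higher and 1 with a lower value in KMS11, beside 14.8% of all tested genes for the higher direction, and 18 of the 24 calls without the offset remained. MRPL4 kept a difference of 0.86 (adjusted p = 0.00078), whereas MRPL41 lost its call, at 0.64 (adjusted p = 0.072).

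The members are short genes, with a median effective length of 932 bases beside 2161 for all tested genes. With length added to the offset, 46 members fell and 1 rose in H929 (23.9% of all tested genes called lower), 5 fell in KMS11 (5.0%), 26 fell across both lines (9.73%), and 26 had a higher and 1 a lower response in KMS11 (15.2% for the higher direction). The median of the members in H929 was -0.43 with the GC offset and -0.28 with both. The gap between the subunits in H929 narrowed step by step: large and small medians were -0.49 and -0.36 without an offset, -0.46 and -0.38 with the GC offset, and -0.29 and -0.28 with GC and length. Large-subunit genes had a higher median GC content (51.8%, against 47.6%) and a shorter median effective length (844, against 1084 bases). In KMS11 the large and small medians stayed close under each of the 3 fits, at -0.13 and -0.12 with both terms.

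The promoters of the members were searched for the letters of known nuclear regulators of mitochondrial genes, and the motifs and stretches shown were settled after the promoters had been scanned. RefSeq promoters (250 bases before to 50 after each start, GRCh38.p14) were found for 69 of the 78 members, in 85 entries. The letters CCGGAAG, bound by ETS factors including GABP, were found on either strand in 38.8% of the entries of members, beside 10.3% of all 35116 promoters and 16.4% of the promoters of tested genes. The YY1 letters AAGATGGCG were in 15.3% of the members' entries, beside 1.75% and 3.28%. The NRF1 letters GCGCANGCG were in 17.6%, beside 7.52% and 12.4%. The TATA box TATAAA was in 3.53%, beside 11.5% and 6.62%. Nearer to the promoters of tested genes were the E-box CACGTG (10.6%, beside 9.18%), the GC box GGGCGG (60.0%, beside 64.6%), CCAAT (32.9%, beside 35.3%) and TGATGNAA, the letters of ATF4 (1.18%, beside 2.02%). None of the ETS, YY1 and NRF1 motifs contains another, but NRF1 letters can match on both strands at 1 place. Of the 69 members 47 had an ETS, YY1 or NRF1 match. An ETS match was in 30 of the 69 members and in 16 of the 44 that fell in H929, a YY1 match in 13 and 7, and an NRF1 match in 14 and 9. A match is a string of letters, not a measured site.

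The following stretches show these letters in members that lead the comparisons above, as examples only. The first 4 are the 100 bases before the RefSeq start, 5′ to 3′ on the strand of the gene, with matches in capitals. MRPS34 (chr16:1773135-1773234, minus strand) and MRPL20 (chr1:1407294-1407393, minus strand) hold 3 and 2 ETS matches, and MRPL17 (chr11:6683341-6683440, minus strand) holds NRF1 matches at 2 places. MRPL18 (chr6:159789712-159789811, plus strand) is shown because it fell second most in H929 and has none of the 3 motifs in this stretch.
MRPS34: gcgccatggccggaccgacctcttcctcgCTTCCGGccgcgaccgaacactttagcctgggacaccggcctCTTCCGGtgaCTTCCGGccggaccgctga
MRPL20: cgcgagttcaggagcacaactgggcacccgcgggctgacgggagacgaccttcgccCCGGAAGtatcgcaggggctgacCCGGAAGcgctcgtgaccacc
MRPL17: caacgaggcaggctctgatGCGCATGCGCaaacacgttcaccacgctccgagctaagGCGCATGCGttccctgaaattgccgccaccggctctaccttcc
MRPL18: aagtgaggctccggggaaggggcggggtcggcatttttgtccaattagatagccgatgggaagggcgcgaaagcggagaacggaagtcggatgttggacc

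The YY1 letters lay just inside the transcribed part in MRPL46 (chr15:88467364-88467388, minus strand) and MRPS24 (chr7:43869483-43869507, minus strand), both called lower across the lines. These 25 bases of each are shown because the letters stand in the same orientation in both.
MRPL46: gagaacgaAAGATGGCGgcgcccgt
MRPS24: gcttggcccAAGATGGCGgcctccg

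Many members share their start region with a neighbour read from the other strand. Such a start of a protein-coding gene lay within 1000 bases for 27 of 78 members (34.6%), beside 17.7% of all tested genes. Of the 26 partners that were tested, 11 fell and 3 rose in H929 (19.3% of all tested genes were called lower and 22.7% higher), with a median of -0.29, beside -0.52 for their members. For all 11 partners that fell, the member fell too, but so did the member for 21 of all 26 tested partners. MRPL46 and MRPS11 start 63 bases apart and are each other's partner, so that they count on both sides, and both fell in H929 (-0.54 and -0.37). MRPL18 lies next to TCP1, a subunit of the cytosolic chaperonin (-0.87), MRPS12 next to SARS2, the mitochondrial seryl-tRNA synthetase (-0.67), and MRPL36 next to NDUFS6, a complex I subunit (-0.91). MRPL52 (-0.65) and its partner SLC7A7, an amino acid transporter subunit (1.23), moved in opposite directions.

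In ethanol, the lines differed in the level of 56 members, 27 lower and 29 higher in KMS11, beside 36.4% and 35.6% of all tested genes. The median difference was 0.00 on the log2 scale, with members going both ways, while the summed CPM of the 78 genes was higher in KMS11 (5150.0 and 5200.0, against 4380.0 and 4720.0 in H929). On the TPM scale, tested with limma and without TMM scaling, the split was 9 lower and 46 higher. The share of all tested genes on that scale was not set beside it, so the split shows no trait particular to the members. There the summed TPM of the members was 3950.0 and 3750.0 in KMS11, against 2210.0 and 2340.0 in H929. MRPL41 was lowest, at 24.9 and 23.2 CPM in H929 and 1.28 and 1.26 in KMS11 (log2 difference -4.24 ± 0.35, adjusted p = 2.7e-06). MRPL4 (-1.61 ± 0.23) and MRPL54 (-1.60 ± 0.16), a mitochondria-specific large-subunit protein, were also lower in KMS11. On the other side, MRPL47, the counterpart of uL29, was at 29.8 and 38 CPM in H929 and 121 and 124 in KMS11 (1.85 ± 0.13, adjusted p = 9.2e-07). MRPS33 (1.67 ± 0.13) and MRPL51 (1.60 ± 0.11), a pair of mitochondria-specific proteins, followed. The groups did not overlap for any of these 6 genes. With the GC offset 27 members were lower and 33 higher in KMS11, beside 38.4% and 37.5% of all tested genes. In that fit MRPL41 was still lower (-2.87), MRPL4 and MRPL54 were at -0.56 and -0.58, and MRPL47 was at 1.55.

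The level difference between the lines ran with that of the genes around each member. Across the 78 members, Pearson's r between the log2 difference of the member and the median of other tested genes within 2 Mb on either side (5 to 108 genes) was 0.54 and Spearman's rho 0.55, and 52 of 78 had the same sign. With the GC offset the correlations were 0.45 and 0.50. The same values were not computed for all tested genes, so they show no trait particular to the members. MRPL54, on chromosome 19 (3762682 to 3768575, GRCh38), was at -1.60 and its neighbours at -1.63. MRPL47, on chromosome 3 (179588285 to 179604649), was at 1.85 and its neighbours at 1.31. MRPL41, on chromosome 9 (137551879 to 137552555), was at -4.24 where its neighbours were at -0.53. MRPL20 (0.53) and MRPL11 (0.66) were higher in KMS11 where their neighbours were lower (-1.23 and -1.13). With the GC offset the neighbours of MRPL20 and MRPL11 were nearer to 0, at -0.16 and -0.37, beside 0.62 and 0.65 for the members. Those of MRPL41 were then at 0.27, those of MRPL54 at -0.73 and those of MRPL47 at 1.05. The level difference also ran against GC content across the members (r = -0.53).

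**Figure D5:**
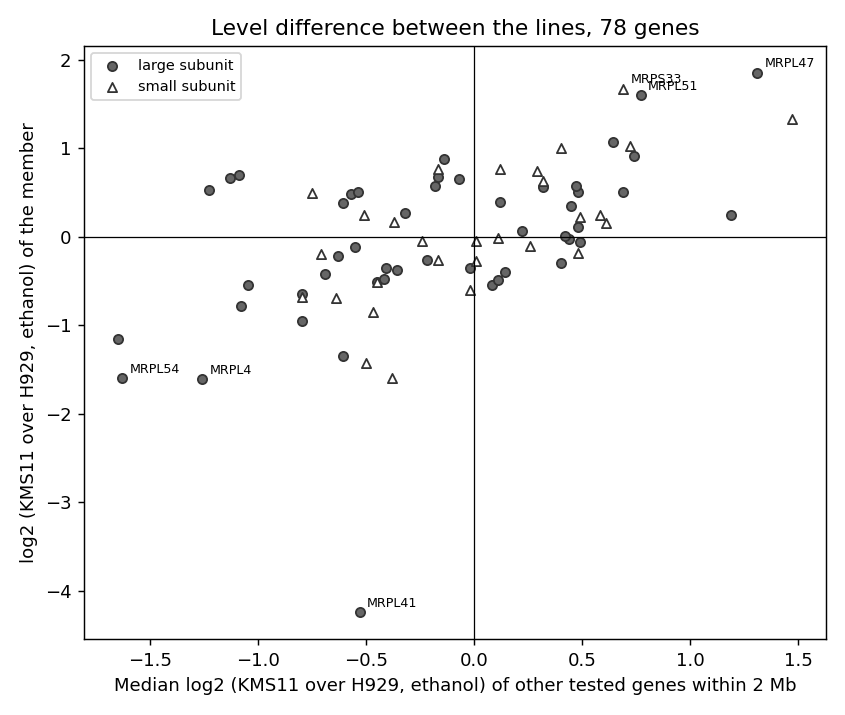
Log2 level difference, KMS11 over H929 in ethanol, of each of the 78 members (vertical) against the median of other tested genes within 2 Mb (horizontal); filled circles are large-subunit and open triangles small-subunit genes. The points rise from left to right (r = 0.54) with a wide scatter, 52 of 78 have the same sign on both axes, and MRPL41 is lowest at -4.24.

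The members at the ends of the level range did not share 1 response in H929. MRPL9, the highest there, was at 112 and 117 CPM with ethanol and 97 and 95.2 with fluvastatin (log2 fold change -0.25 ± 0.09, adjusted p = 0.049), a call lost with the GC offset (-0.14, adjusted p = 0.13). MRPL57, a mitochondria-specific protein, was at 24.3 and 23.3 against 16.1 and 16.8 CPM (-0.53 ± 0.12, adjusted p = 0.0059), and MRPS26, another of the small subunit, at 17 and 16.2 against 9.31 and 8.94 CPM (-0.86 ± 0.14, adjusted p = 0.00078). MRPS33 was at 41.1 and 51.9 CPM with ethanol and 45.7 and 47.1 with fluvastatin, with overlapping groups.

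The 3 paralogues of the MRPS18 family sit at different places: MRPS18C is the counterpart of bacterial bS18, MRPS18B is another small-subunit protein, and MRPS18A is part of the large subunit. Of these only MRPS18B passed the test in H929, from 108 and 111 to 78.4 and 77.2 CPM (-0.49 ± 0.09, adjusted p = 0.0017). MRPS18C had a log2 fold change of -0.32 ± 0.13 (adjusted p = 0.083, and -0.41 with adjusted p = 0.0021 under the GC offset) and MRPS18A one of -0.31 ± 0.15 (adjusted p = 0.14). The differences among the paralogues were not tested, and MRPS18A shares 50.9% of its exon bases with RSPH9 on the other strand. MRPS30 (-0.09 ± 0.12) and MRPS36 (-0.11 ± 0.13), whose symbols do not match their complex, were not called in H929, with adjusted p of 0.59 and 0.5.

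RSEM gives each gene a transcript length weighted by the estimated abundance of its isoforms. Of 70 members with more than 1 transcript, 6 were longer and 6 shorter in KMS11 with no overlap between the 4 libraries of each line, near the shares over all tested genes with more than 1 transcript (11.2% longer and 8.57% shorter). MRPS16 was at a mean of 1583 bases in H929 and 1877 in KMS11, MRPL19 at 1916 and 2165, and MRPS18C at 660 and 735.

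The other genes of mitochondrial translation were taken as fixed lists. All 5 mitoribosome proteins with other symbols fell in H929, with a median of -0.54, where 19.3% of all tested genes were called lower. They were GADD45GIP1 (-1.03 ± 0.21), AURKAIP1 (-0.78 ± 0.21), PTCD3 (-0.54 ± 0.11), CHCHD1 (-0.50 ± 0.12) and DAP3 (-0.25 ± 0.09). GADD45GIP1 was at 69.3 and 69.4 CPM with ethanol and 38.2 and 30 with fluvastatin in H929, and at 16.4 and 17.5 against 33.4 and 19.9 in KMS11 (log2 fold change 0.65, and 0.28 with the GC offset, neither called). Of 27 assembly factors, 15 fell and none rose in H929, with a median of -0.54. The largest falls were those of C1QBP, a matrix protein that binds RNA and ribosomal components (-0.91 ± 0.12), MPV17L2 (-0.84 ± 0.18), the helicase DHX30 (-0.79 ± 0.14) and the rRNA methyltransferase MRM2 (-0.78 ± 0.13).

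Of 15 translation factors and mRNA-binding proteins, 6 fell in H929 and none rose (median -0.21), beside 19.3% of all tested genes called lower and 22.7% higher. SLIRP, which stabilizes mitochondrial mRNAs, went from 41.2 and 51 to 19.9 and 24.4 CPM (-1.06 ± 0.15, adjusted p = 0.00041), and LRPPRC, its partner, had a smaller fall of -0.36 ± 0.13. The elongation factors TUFM (-0.63 ± 0.11) and TSFM (-0.46 ± 0.10) also fell. Of the 5 genes of mitochondrial transcription, MTERF1 had no counts in H929 and 1 fell there, a share near that of all tested genes. It was TFAM, which packages mitochondrial DNA and starts its transcription (-0.56 ± 0.12, adjusted p = 0.0053). With the GC offset 2 of the 5 fell, beside 23.8% of all tested genes. In KMS11 edgeR called no gene of these 4 lists. The unadjusted p was under 0.05 for 3 of 5 mitoribosome proteins and 5 of 27 assembly factors. It was so for 4 of 15 translation factors, 3 of 5 transcription genes, and 2874 of the 13129 tested genes. With the GC offset 3 assembly factors, 3 translation factors and 2 transcription genes fell in KMS11, beside 4.56% of all tested genes.

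Among 9 nuclear regulators, 3 fell and 2 rose in H929, where 19.3% of all tested genes were called lower and 22.7% higher. PPARGC1A, the coactivator PGC-1α, rose from 7.05 and 6.08 to 14.8 and 16.5 CPM (1.25 ± 0.16, adjusted p = 0.00025), and MYC rose by 0.39 ± 0.10 (adjusted p = 0.014). The coactivators PPRC1 (-0.68 ± 0.12) and PPARGC1B (-0.53 ± 0.13) and the factor NRF1 (-0.47 ± 0.14) fell. GABPA (0.02 ± 0.12) and YY1 (-0.24 ± 0.09) were not called, with adjusted p of 0.91 and 0.06. The responses of PPARGC1A and MYC differed between the lines, by -0.83 ± 0.22 (adjusted p = 0.024) and -0.83 ± 0.15 (adjusted p = 0.0043), or -0.70 and -1.22 with the GC offset, and MYC was at 351 and 393 CPM with ethanol and 291 and 257 with fluvastatin in KMS11.

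Cytosolic ribosomal proteins, which build the ribosome outside mitochondria, had a smaller median change. Of 79, 10 fell in H929 and none rose, where 19.3% of all tested genes were called lower. Their median was -0.16, beside -0.45 for the mitochondrial ones. Of the 79 values 74 were negative, and the replicate groups were apart and lower with fluvastatin for 56 genes, beside 33.5% of all tested genes. RPL35 (-0.54 ± 0.13), RPS10 (-0.45 ± 0.11), RPL27 (-0.44 ± 0.10) and RPL36 (-0.42 ± 0.15) had the largest falls. With the GC offset 28 fell (35.4%, beside 23.8% of all tested genes) and 1 rose (beside 31.0%). With GC content and length in the offset, 1 cytosolic gene fell and 20 rose (30.7% of all tested genes were called higher in this fit), with a median of 0.09, where the mitochondrial ones kept a median of -0.28. The median effective length of the cytosolic genes was 464 bases, and that of the mitochondrial ones 932.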

How the data were processed

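Total RNA, depleted of rRNA, was sequenced from 8 libraries with a stranded kit. The authors aligned paired-end reads to hg38 with STAR 2.5.2b and deposited RSEM 1.3.0 expected counts and TPM values per gene (GENCODE v26), with tool versions from the submitters' processing notes; per the file headers, the deposited length and effective length are in bases. Gene names and GC content came from GENCODE v44.

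Expected counts of protein-coding genes were rounded, filtered (filterByExpr, count minimum 10, total 15), TMM-scaled and tested with edgeR 4.0.16 (quasi-likelihood F test) in R 4.3.3; adjusted p-values are Benjamini-Hochberg over 13129 genes, with a threshold of 0.05. The fit for both lines held line and treatment, and the other comparisons came from 1 fit of the 4 group means. SE is the log2 fold change over the root of F. GC and length offsets were loess curves (span 0.5) of each library's log2 CPM. Levels are TPM, and differences are on the CPM scale. DESeq2 1.42.0 and limma 3.58.1, on log2(TPM + 1), served as alternatives. The edgeR fits were tested on simulated data.

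Named genes were, per comparison, the 3 largest called changes per direction, members called against the majority, the 3 highest and 3 lowest levels, the MRPS18 genes, MRPS30 and MRPS36, and up to 4 called genes per companion list. Other names were chosen after their values were seen. The members and lists were chosen with earlier results of these data known. Library depth is given with the results. The p-values measure the spread between these 8 libraries.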

Additional observations from a re-analysis of the deposited data

Results flagged for a closer look

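The difference between the 2 lines in response to fluvastatin was tested directly, and 24 members passed, all higher in KMS11 than in H929. Of these, MRPL4 (1.66), MRPL41 (1.64) and MRPS34 (1.46) had the largest differences on the log2 scale, KMS11 minus H929. With the GC offset the values were 0.86, 0.64 and 0.69, and the call of MRPL41 was lost. The first fluvastatin library of KMS11, in which GC-rich genes were high, moves with these values, and without it they were 1.20, 0.93 and 1.18. Groups of 2 libraries are too small for a test of single outlying samples.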

How the results depend on the processing

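The count of members that fell in H929 stayed within 1.5 times its value of 49 under every alternative run, from 36 to 60, and was 36 to 59 without single libraries. The joint count of 10 was 32 with DESeq2, 0 with no cell line term, 46 as the mean of the within-line contrasts, 23 with limma on TPM, 37 with the GC offset, 26 with GC content and length, and 0 to 18 without single libraries. In KMS11 the count of 0 was 1 with DESeq2 and with no filter, 9 with the GC offset, 5 with GC content and length, and 0 to 7 without single libraries; the 7 came without the second fluvastatin library, where 6 members rose. The count for the difference of responses was 13 to 29 without single libraries, and that for the lines in ethanol 43 to 57. With the replicate block 0 members fell jointly and 3 in KMS11, while 58 fell in H929 and 32 differed in response. Except for the GC and length offsets, the shares of all tested genes under these alternatives were not set beside the counts. A change in a count can therefore reflect how many genes an alternative calls. The deviations of libraries with the same number correlated at 0.774 in H929 and -0.078 in KMS11, over 2 pairs per line, so the numbers were not taken to pair the samples.

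Among single genes in H929, RPL36 turned to 0.10 with GC content and length. MRPS33, near 0, was at 0.01 with DESeq2 and with median-of-ratios scaling, 0.00 with library size and the replicate block, 0.03 with a mean of at least 100 counts, 0.15 with GC content and length, and -0.16 to 0.17 without single libraries (0.17 without the second ethanol and 0.02 without the first fluvastatin library of H929). MRPS30 was at -0.22 to 0.05 without single libraries, and above 0 without the same 2 (0.05 and 0.01). The calls of MRPL41 and MRPL9 in H929 were lost without some single libraries, and that of MRPL51 without the first fluvastatin library of H929, at -0.36. Across all alternatives for named genes, 786 values kept direction and call, 82 lost the call, 8 gained it and 11 changed sign. The cause was not tested. Depth limits MRPL41 in KMS11.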

Other observations

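MTERF1, a mitochondrial transcription termination factor on the list of mitochondrial transcription genes, was listed at 0 CPM in all 4 H929 libraries. In KMS11 it was at 23.4 and 26 CPM with ethanol and at 19.9 and 20 CPM with fluvastatin. POLRMT, the mitochondrial RNA polymerase, was at 48.4 and 36.5 CPM in H929 with ethanol and at 12.8 and 12.9 CPM in KMS11 (log2 difference -1.72 ± 0.27, adjusted p = 0.00024 by edgeR, and -0.60 with the GC offset). TFAM (0.98 ± 0.12) and TFB2M (0.91 ± 0.15) were higher in KMS11 in the same comparison. YY1 was also higher in KMS11, at 379 and 356 CPM beside 120.0 and 123 CPM in H929 (1.60 ± 0.09, adjusted p = 2.8e-07).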
